A study of Mus musculus with 6 samples.

Results

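The genes described here encode the ion and metal transporters of the solute carrier families Slc4 (bicarbonate), Slc9 (sodium-proton exchange), Slc24 (potassium-dependent sodium-calcium exchange), Slc26 (chloride, sulfate and other anions), Slc30 (zinc export) and Slc39 (zinc import). They were taken by symbol alone, without Slc4a1, the anion exchanger of red blood cells, which gave 58 genes of the 23420 gene symbols counted. Their RNA was compared in tooth germs of Smad7-/- embryos (3 libraries) and wild-type embryos (3 libraries), all on the C57BL/6 background and all labelled E15.5 (embryonic day). Smad7 encodes an inhibitory SMAD protein, a brake on TGF-beta and BMP signalling. The labels describe its disruption as Smad7-/- with no further detail of the allele. The labels give neither the number of embryos behind a library nor whether libraries came from separate animals, so the p-values below measure the spread between these samples, which may be technical. Smad7 counts were 80, 62 and 41 in the Smad7-/- libraries and 1097, 934 and 859 in the wild-type libraries, so each library matched its label. Total counts ran from 37591888 to 56575476 per Smad7-/- library and from 47800685 to 52137318 per wild-type library.

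Forming tooth enamel has to handle acid as well as calcium. Crystal growth releases protons, and ameloblasts, the epithelial cells that lay down enamel, are known to secrete bicarbonate and to exchange protons, chloride and calcium across their membranes, most of all in the maturation stage that follows matrix secretion. Zinc carriers work in nearly every cell: Slc39 proteins bring zinc into the cytosol and Slc30 proteins take it out of the cytosol, into organelles or out of the cell.

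The tissue held abundant RNA of the enamel matrix. Amelx, the main enamel matrix gene, was at 6364, 8479 and 5999 CPM (counts scaled to a common library size of 1000000) in the Smad7-/- libraries and at 6347, 10029 and 13709 CPM in the wild-type libraries. Klk4, the protease of the maturation stage, was at 1.12, 1.47 and 0.989 CPM in Smad7-/- and at 0.995, 1.42 and 1.76 CPM in wild type. Odam, a gene also known from maturation-stage ameloblasts, was more abundant, at 264, 316 and 199 CPM in Smad7-/- and at 243, 158 and 187 CPM in wild type, while Amtn was at most 2.10 CPM in any library. The groups overlapped for all 4 genes, and the genes linked to maturation thus gave no single picture of the stage. Secretion of enamel matrix in mouse molars is known to begin around birth, later than the labelled age, and how that bears on the age label was not tested. Which cells made the transporter RNA cannot be read from whole tooth germs, where fewer cells of a type and less RNA per cell cannot be told apart.

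Most of the transporter genes differed little between the genotypes, and no member passed the test across all genes in edgeR (quasi-likelihood test, Benjamini-Hochberg adjusted p under 0.05). The smallest unadjusted p-values belonged to 3 bicarbonate carriers, Slc4a4, Slc4a8 and Slc4a9. A filter on low counts left 51 of the 58 genes for testing. The edgeR test called 0 of these 51, where it called 0.0262% of all 15284 tested genes, or 4 genes (0.0131% lower and 0.0131% higher). DESeq2, run as an alternative, called 2 of them, Slc4a4 and Slc4a8, both lower in Smad7-/-, where it called 0.351% of 16816 genes in either direction and 0.0892% on the lower side. An unadjusted p under 0.05 in edgeR was reached by 4 members on the lower side, where 1.88% of all tested genes did so, and by 0 on the higher side, where 3.26% did (5.14% in either direction). The 4 were Slc4a4, Slc4a8, Slc4a9 and Slc30a3. This count was 8 without wild-type library 1, with 1 further member on the higher side, and the count over all genes in either direction was then 1365 of 15515, against 786 of 15284 with all libraries. It was 2 without Smad7-/- library 1, where 555 of 15514 genes reached that p.

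The direction of the estimates leaned to the lower side. The log2 fold change (Smad7-/- over wild type) was below 0 for 38 of the 51 tested members (74.5%), against 50.9% of all tested genes. The median was -0.10 over the members and -0.00283 over all tested genes. It was -0.0432 over the members without wild-type library 2, -0.0578 without wild-type library 3 and -0.0589 with a covariate for a division of the libraries that crosses genotype. Among members with a mean of at least 5 CPM, 25 of 32 (78.1%) were below 0, with a median of -0.05. Of all tested genes with such a mean 52.3% were below 0, with a median of -0.00595. The members passed the filter in the same libraries that the fold changes come from, and they share those libraries, so these counts describe the list only. Values of the Smad7-/- libraries all lay below those of the wild-type libraries for 4 members (Slc4a4, Slc4a8, Slc30a3 and Slc39a11), where 3.91% of all tested genes did so. They lay above them for 0 members, where 4.97% of tested genes did (8.88% in either direction).

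**Figure D1:**
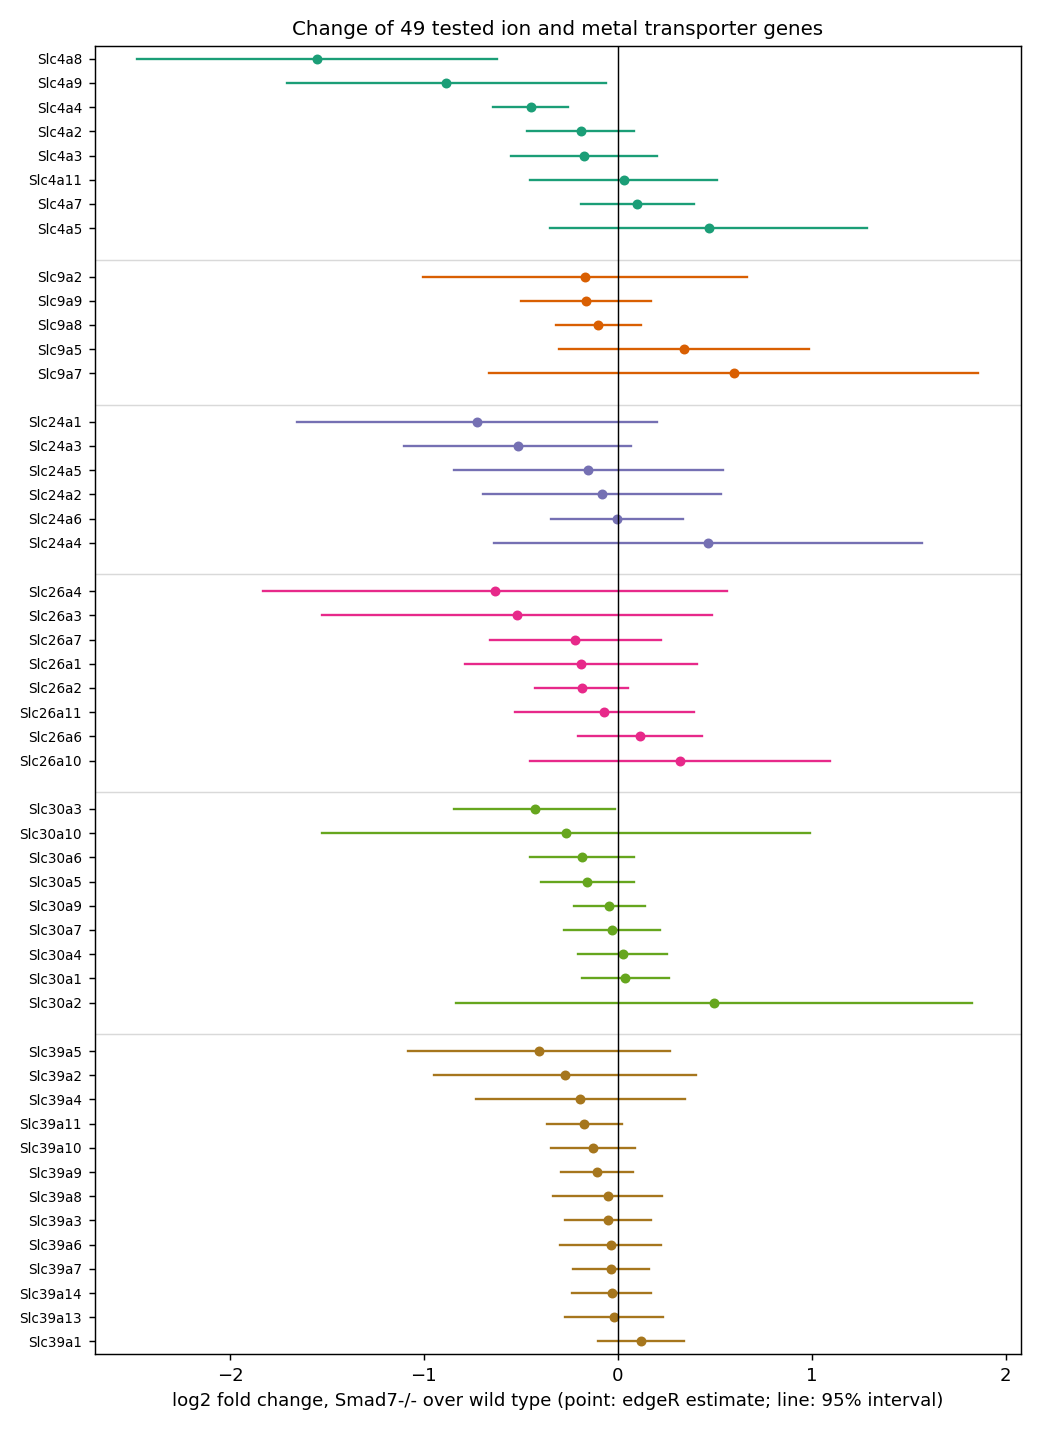
Log2 fold change (Smad7-/- over wild type, x axis) of 49 tested transporter genes, grouped by family on the y axis, with the edgeR estimate as a point and its 95% interval as a line. Intervals that do not reach 0 belong to Slc4a8, Slc4a9, Slc4a4 and Slc30a3, and 22 of the 49 intervals drawn lie between -0.5 and 0.5.

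The precision of the estimates followed the abundance of the genes. The 95% interval of the log2 fold change lay between -0.5 and 0.5 for 24 of 51 members, all 24 with a mean of at least 5 CPM. It lay between -1 and 1 for 37 of 51. The median standard error was 0.11 among the 32 members of at least 5 CPM and 0.37 among the 19 below it. The intervals therefore bound the change of the abundant zinc carriers closely and that of the scarce anion exchangers only loosely. A failure to pass the test bounds no change by itself.

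Levels were compared between genes per kilobase of annotated exon. By this measure the zinc importers held 65.9% of the members' summed level in Smad7-/- and 65.1% in wild type. The zinc exporters followed, with 19.1% in Smad7-/- and 18.6% in wild type. Bicarbonate carriers held 6.09% in Smad7-/- and 7.14% in wild type, and the Slc9, Slc24 and Slc26 families between 1.57% and 4.74% each in either genotype. The most abundant member was Slc39a7, an importer of the endoplasmic reticulum and Golgi that releases zinc into the cytosol, at 109 ± 4.31 CPM per kilobase in Smad7-/- and 111 ± 7.36 in wild type (mean ± SD, n = 3). An annotated read-through transcript, Gm20427, shares 80.7% of its exon bases, so the level of Slc39a7 is uncertain. Next came Slc39a6 with 88.8 ± 7.37 CPM per kilobase in Smad7-/- and 91.0 ± 12.8 in wild type. Slc30a4 had 72.2 ± 5.89 in Smad7-/- and 70.9 ± 6.51 in wild type, and Slc39a8 had 61.5 ± 5.46 in Smad7-/- and 63.8 ± 10.4 in wild type. Slc39a1 followed with 54.9 ± 5.34 in Smad7-/- and 50.5 ± 3.998 in wild type. The library values of Slc30a4 overlapped those of Slc39a8 in both genotypes, and the values of Slc39a8 overlapped those of Slc39a1 in Smad7-/- but not in wild type, so this part of the order is loose. The values of Slc39a6 lay above those of Slc30a4 in every library of either genotype. Slc4a4, at place 9 of 58, was the most abundant member that does not carry zinc.

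**Figure D2:**
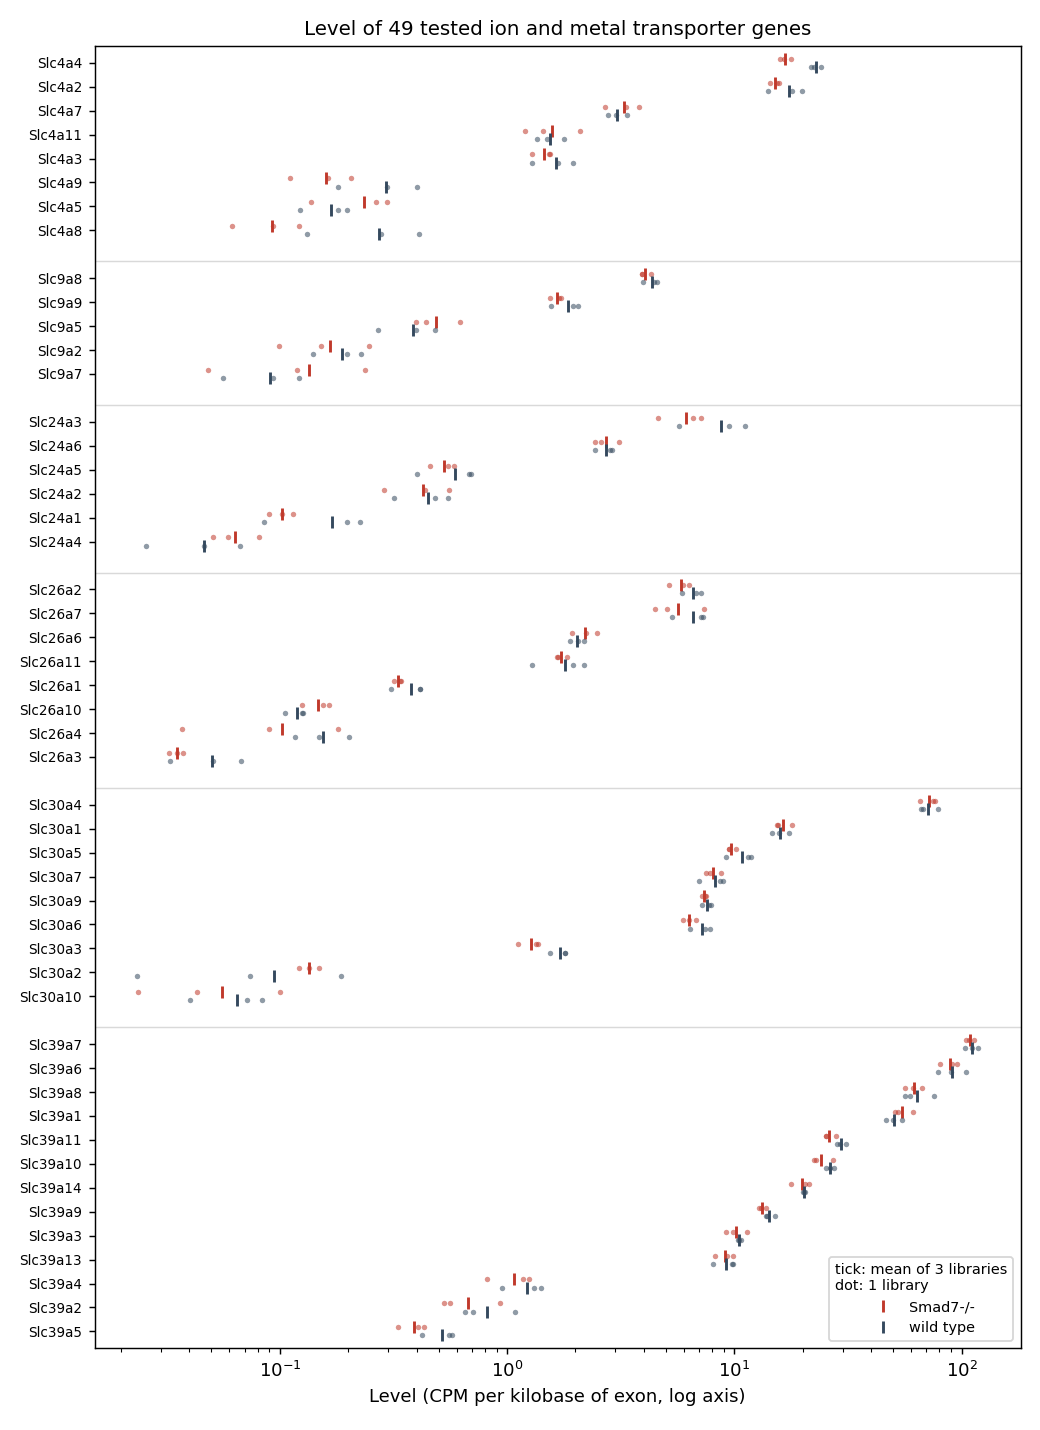
Level of 49 tested transporter genes in CPM per kilobase of exon (x axis, log scale), by family and gene on the y axis, with 1 dot per library and a tick at the mean of 3 libraries, Smad7-/- above wild type. Means of the Slc39 family reach 109 in Smad7-/- and 111 in wild type, and most genes have overlapping dots, with Slc4a4, Slc4a8, Slc30a3 and Slc39a11 as the 4 exceptions.

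At the other end 7 members did not pass the filter on low counts. They were Slc4a10, Slc9a3, Slc9a4, Slc26a5, Slc26a9, Slc30a8 and Slc39a12, of which Slc26a9 had no count in any library. Slc39a12 had 11 counts over the 3 Smad7-/- libraries and 19 over the wild-type libraries. Slc4a10 had 10 counts in Smad7-/- and 2 in wild type, 8 of the 10 in Smad7-/- library 2. The others had between 0 and 6 counts per genotype. These are genes known mainly from other organs, such as Slc26a5, the motor protein prestin of cochlear hair cells, and Slc30a8, the zinc carrier of insulin granules.

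Among the bicarbonate carriers Slc4a4 gave the clearest difference relative to its error. It encodes NBCe1, an electrogenic sodium-bicarbonate cotransporter, whose loss in people is known to cause renal tubular acidosis and enamel defects. The gene lies on chromosome 5, forward strand, bases 88886818 to 89239653 of GRCm38 (mm10). Slc4a4 stood at 178, 172 and 191 CPM in the Smad7-/- libraries and at 261, 236 and 242 CPM in the wild-type libraries. Every Smad7-/- library lay below every wild-type library, and the spread within each genotype was small. The level in Smad7-/- was 73.3% of that in wild type, with 181 ± 9.75 CPM in Smad7-/- and 246 ± 13.3 CPM in wild type (SD, n = 3). Its log2 fold change was -0.45 ± 0.09 (SE), with a 95% interval from -0.64 to -0.26 and an unadjusted p = 4.09e-04 in edgeR. The difference did not pass over all genes in edgeR (adjusted p = 0.521) and passed in DESeq2 (-0.45 ± 0.10, adjusted p = 0.00570). Without any single library the edgeR value ran from -0.49 to -0.41, with unadjusted p from 4.89e-04 to 0.00265 and adjusted p from 0.255 to 1.00.

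Apart from genotype the libraries fall into a pair of sets of unknown origin, a division taken from earlier results of these data and crossing genotype, with Smad7-/- libraries 1 and 2 and wild-type library 1 on one side and the other 3 libraries on the other. The log2 ratio of Slc4a4 was -0.58 within the first of these sets and -0.32 in the other. Since every Smad7-/- library lay below every wild-type library, the sign of both ratios was fixed beforehand and adds no support. With the set as a covariate the fold change was -0.45 ± 0.08 (edgeR unadjusted p = 2.63e-04, adjusted p = 0.237).

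Slc4a8 encodes NDCBE, a sodium-driven chloride-bicarbonate exchanger best known from neurons and the kidney. It lies on chromosome 15, forward strand, bases 100761747 to 100823968. It was a scarce transcript, with 30, 53 and 91 counts in the Smad7-/- libraries and 88, 263 and 173 counts in the wild-type libraries. Scaled to library size these were 0.799, 1.22 and 1.58 CPM in Smad7-/- and 1.72, 5.32 and 3.62 CPM in wild type. The groups did not overlap, but the highest Smad7-/- library, number 3, came close to the lowest wild-type library, number 1. The log2 fold change was -1.55 ± 0.41 (SE), the most negative of the 51 members, with a 95% interval from -2.48 to -0.62. In edgeR the unadjusted p was 0.00412 and the adjusted p 0.642, while DESeq2 called the gene at -1.56 ± 0.40 (adjusted p = 0.0376). The log2 ratio was -0.56 in the first library set and -1.26 in the other, and without wild-type library 2 the fold change was -1.14. Of 6 neuronal markers Tubb3 stood at 245, 299 and 243 CPM in Smad7-/- and at 312, 309 and 273 CPM in wild type. Stmn2 was at 44.2, 48.4 and 34.3 CPM in Smad7-/- and at 48.3, 46.6 and 46.1 CPM in wild type, which overlapped. Elavl3, Elavl4, Snap25 and Syt1 were at most 2.22 CPM in any library. Syt1 was at 1.41, 1.89 and 1.86 CPM in Smad7-/- and at 2.22, 2.16 and 2.03 CPM in wild type. These Syt1 values did not overlap (log2 fold change -0.31 ± 0.24), while those of Elavl3, Elavl4 and Snap25 did. The summed level of the 6 neuronal markers was 280.1 to 349.9 CPM in Smad7-/- and 323 to 364 CPM in wild type, and its part in the Slc4a8 difference was not tested.

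Slc4a9, or AE4, an exchanger known from acid-base regulating cells of the kidney, was at 1.04, 1.31 and 0.712 CPM in Smad7-/- and at 1.15, 1.90 and 2.58 CPM in wild type. The groups overlapped, since Smad7-/- library 2 was higher than wild-type library 1. Its log2 fold change was -0.88 ± 0.37 (SE; edgeR unadjusted p = 0.0376, adjusted p = 0.908). It was 0.02 in the first library set and -1.18 in the other, so the difference rested on the second set, that is on Smad7-/- library 3 and wild-type libraries 2 and 3.

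**Figure D3:**
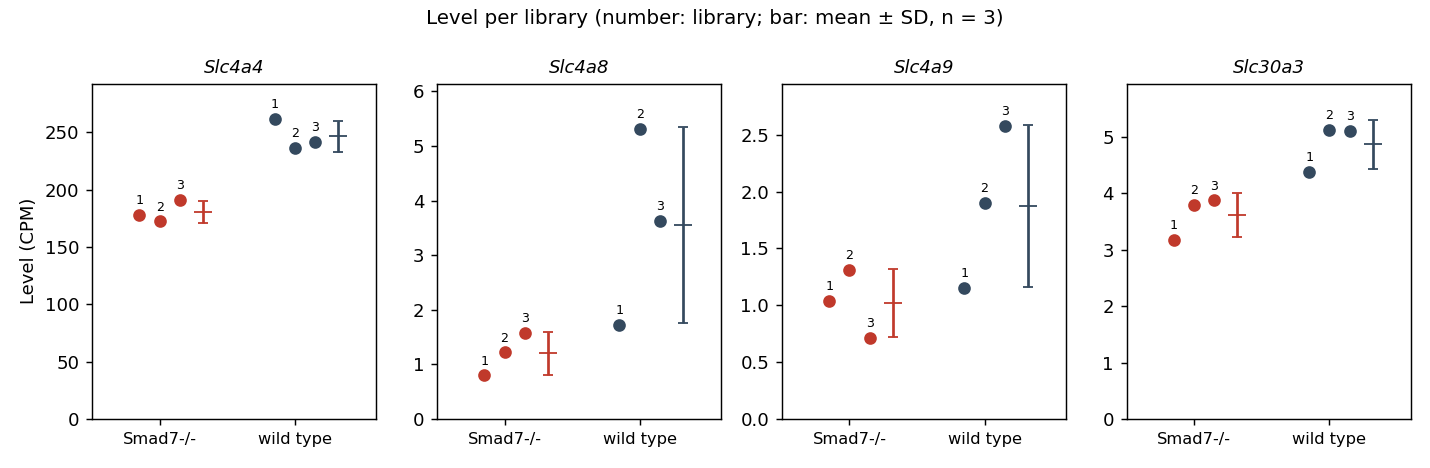
Level in CPM (y axis) of Slc4a4, Slc4a8, Slc4a9 and Slc30a3 in each library, Smad7-/- left of wild type, with the library number above each point and the mean ± SD beside them (n = 3). Slc4a4, Slc4a8 and Slc30a3 have no overlap between the genotypes, while for Slc4a9 Smad7-/- library 2 (1.31 CPM) lies above wild-type library 1 (1.15 CPM).

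None of the other tested bicarbonate carriers reached an unadjusted p under 0.05 in edgeR with all libraries. Slc4a2, or AE2, the chloride-bicarbonate exchanger that ameloblasts and osteoclasts use, was at 119.6, 130.6 and 128.8 CPM in Smad7-/- and at 117, 150.1 and 166 CPM in wild type. The groups overlapped through wild-type library 1, the lowest of all 6. Its log2 fold change was -0.19 ± 0.12 over all libraries and -0.33 ± 0.09 without that library (edgeR adjusted p = 0.999 and 0.423). Slc4a2 shares 13.7% of its exon bases with Fastk on the opposite strand, and the library kit does not record strand. Slc4a7, the electroneutral cotransporter NBCn1, stood at 0.10 ± 0.13 and Slc4a3, or AE3, at -0.17 ± 0.17. Slc4a11, a carrier of the corneal endothelium, was at 0.03 ± 0.22, and Slc4a5, the electrogenic cotransporter NBCe2, at 0.47 ± 0.37. Summed over the family per kilobase, the level was 38.5, 37.9 and 39.6 CPM per kilobase in Smad7-/- and 44.9, 47.2 and 49.2 in wild type. Most of this difference came from Slc4a4 alone, at 16.7 ± 0.901 CPM per kilobase in Smad7-/- and 22.8 ± 1.23 in wild type, beside family means of 38.7 in Smad7-/- and 47.1 in wild type.

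The starts of the 2 genes that DESeq2 called are shown because Smad7 acts on SMAD transcription factors, whose known DNA motifs are the SMAD box CAGAC and the GC-rich element GGCGCC. Slc4a4 has 2 starts in RefSeq (GRCm38.p6). The window of 250 bases before the outer one, chr5:88887010-88887259, lies inside an annotated first exon of another Slc4a4 transcript and is not printed. It had 82.0% G and C with 1 GGCGCC, 181 bases before the start. The window before the inner start, chr5:89027716-89027965 (forward strand), had 48.8% G and C and held neither motif. The single start of Slc4a8 lies next to chr15:100761497-100761746 (forward strand), which held GGCGCC 2 times, at 94 and 10 bases before the start, shown in capitals.
Slc4a4, inner start: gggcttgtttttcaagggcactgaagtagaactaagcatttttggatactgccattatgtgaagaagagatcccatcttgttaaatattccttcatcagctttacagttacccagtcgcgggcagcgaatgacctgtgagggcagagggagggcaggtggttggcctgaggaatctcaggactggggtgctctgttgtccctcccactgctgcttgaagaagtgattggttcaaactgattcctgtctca
Slc4a8: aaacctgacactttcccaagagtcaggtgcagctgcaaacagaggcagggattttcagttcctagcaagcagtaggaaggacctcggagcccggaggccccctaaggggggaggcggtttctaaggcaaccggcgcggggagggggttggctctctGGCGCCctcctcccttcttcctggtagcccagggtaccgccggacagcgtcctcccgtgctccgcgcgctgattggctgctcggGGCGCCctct
Searched on both strands, CAGAC was found in 42.2% of all 32817 windows of this length and in 25 of the 55 windows (44 genes) of the members. GGCGCC, which reads the same on both strands and does not overlap CAGAC, was found in 9.59% of all windows and in 7 of 55. A match describes the letters of these windows, and the gene counts do not tell which Slc4a4 start was used.

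Of the sodium-proton exchangers of the Slc9 family 7 were tested, with a median log2 fold change of -0.03, and 0 reached an unadjusted p under 0.05 in edgeR. Slc9a8, an exchanger of the Golgi, was at 35.5, 35.6 and 38.999 CPM in Smad7-/- and at 35.9, 40.5 and 41.7 CPM in wild type. These values overlapped, with a log2 fold change of -0.10 ± 0.10 and a 95% interval from -0.32 to 0.12. Slc9a9, an endosomal exchanger, stood at -0.17 ± 0.15. The scarcer Slc9a2, Slc9a5 and Slc9a7 ranged from -0.17 to 0.60 with standard errors from 0.29 to 0.57. Slc9a3 and Slc9a4, the exchangers of intestine and stomach, were 2 of the 7 members with too few counts to test.

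Of the calcium exchangers Slc24a3, or NCKX3, was the most abundant. It was at 21.1, 32.7 and 30.1 CPM in Smad7-/- and at 25.99, 43.3 and 50.8 CPM in wild type. In each genotype library 1 was the lowest, and the groups overlapped through wild-type library 1. The log2 fold change was -0.51 ± 0.25 (edgeR unadjusted p = 0.0771, adjusted p = 0.995). It was 0.05 in the first library set and -0.63 in the other. A fit with the set as a covariate gave -0.30 ± 0.22, and leaving out wild-type library 1 gave -0.75 ± 0.18 (edgeR adjusted p = 0.950 and 0.375). Slc24a4, or NCKX4, the calcium exchanger of maturation-stage ameloblasts, was almost absent, with 10, 10 and 21 counts in Smad7-/- and 6, 15 and 10 in wild type. Without 1 library its log2 fold change ran from 0.17 (without wild-type library 1) to 0.82 (without wild-type library 2). Over all libraries the value of 0.47 ± 0.50 had a 95% interval from -0.64 to 1.57, so neither a higher nor a lower level could be detected at this depth. Slc24a6, the mitochondrial exchanger now named Slc8b1, had nearly equal means, at 9.40 ± 1.20 CPM in Smad7-/- and 9.42 ± 0.832 CPM in wild type. Slc24a1, Slc24a2 and Slc24a5 ranged from -0.73 to -0.08. Slc24a5, the exchanger of pigment cell organelles, was at 1.24 ± 0.152 CPM in Smad7-/- and 1.38 ± 0.381 CPM in wild type, and 39.5% of its exon bases overlap Myef2 on the opposite strand. Of 5 melanocyte markers Dct was at 4.68, 3.75 and 1.84 CPM in Smad7-/- and at 4.08, 1.46 and 4.31 CPM in wild type, and Pmel between 1.36 and 1.89 CPM in every library. Tyr had no count, and Tyrp1 and Mlana had at most 5 counts in any library.

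Among the anion carriers Slc26a2 and Slc26a7 were the most abundant. Slc26a6 and Slc26a11 also had means above 5 CPM, at 11.5 and 6.37 CPM, and the remainder was scarce. Slc26a2, the sulfate transporter that cartilage needs for its proteoglycans, was at 73.2, 64.0 and 78.1 CPM in Smad7-/- and at 84.1, 88.0 and 72.9 CPM in wild type. The groups overlapped, and the log2 fold change was -0.19 ± 0.11, with a 95% interval from -0.43 to 0.05. Cartilage markers summed to 84.6 to 95.3 CPM in Smad7-/- and 83.0 to 92.8 CPM in wild type. Sox9 made up most of these sums, at 57.1 to 77.7 CPM per library, and Matn1 had no count. Col2a1 was at -0.19 ± 0.16 and Acan at 0.70 ± 0.34, so the sums do not measure the amount of cartilage. Slc26a7, a chloride and bicarbonate carrier present in ameloblasts, was at 27.3, 24.4 and 40.1 CPM in Smad7-/- and at 28.9, 39.6 and 38.6 CPM in wild type. The lowest values, Smad7-/- libraries 1 and 2 and wild-type library 1, form the first library set, and the ratio was -0.16 in that set and 0.04 in the other. The fold change over all libraries was -0.22 ± 0.19, and -0.47 ± 0.15 without Smad7-/- library 3 (edgeR adjusted p = 0.999 and 0.471). Slc26a6, an exchanger of chloride with bicarbonate or oxalate, was at 13.4, 12.1 and 10.4 CPM in Smad7-/- and at 11.1, 10.2 and 11.9 CPM in wild type, with a fold change of 0.12 ± 0.14.

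Further exchangers that maturation-stage ameloblasts are known to carry were scarce in both genotypes. Slc26a1, a sulfate and oxalate exchanger, was at 1.38, 1.29 and 1.37 CPM in Smad7-/- and at 1.68, 1.25 and 1.68 CPM in wild type. Slc26a3, the chloride-bicarbonate exchanger DRA, was at 0.240, 0.207 and 0.226 CPM in Smad7-/- and at 0.429, 0.324 and 0.209 CPM in wild type. Slc26a4, or pendrin, was at 0.559, 0.115 and 0.278 CPM in Smad7-/- and at 0.624, 0.364 and 0.461 CPM in wild type. All 3 sets of values overlapped between the genotypes, with fold changes of -0.19 ± 0.27, -0.52 ± 0.45 and -0.63 ± 0.54 for Slc26a1, Slc26a3 and Slc26a4. These estimates moved with single libraries: Slc26a4 was at -1.25 without Smad7-/- library 1 and at -0.24 without Smad7-/- library 2, Slc26a3 at -0.26 and Slc26a4 at -0.41 without wild-type library 1, and Slc26a1 at -0.31 without wild-type library 2. Slc26a10 and Slc26a11 stood at 0.32 ± 0.35 and -0.07 ± 0.21.

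Among the zinc exporters the abundant genes differed little between the genotypes, while the scarce Slc30a2 and Slc30a3 had estimates of 0.50 and -0.43. Slc30a4, or ZnT4, which loads zinc into vesicles and is mutated in the lethal milk mouse, was at 419, 409 and 359 CPM in Smad7-/- and at 429.9, 371 and 365 CPM in wild type. In each genotype library 1 was the highest and library 3 the lowest, and the log2 fold change was 0.02 ± 0.10, with a 95% interval from -0.20 to 0.25. Slc30a1, or ZnT1, the exporter of the plasma membrane, stood at 0.04 ± 0.10. The Golgi exporters Slc30a5, Slc30a6 and Slc30a7 ranged from -0.18 to -0.03, and the mitochondrial Slc30a9 was at -0.04 ± 0.08. Slc30a2 and Slc30a10, the second a manganese exporter, were below 0.7 CPM in every library, with standard errors of 0.60 and 0.56.

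Slc30a3, or ZnT3, which fills synaptic vesicles of neurons with zinc, was the one exporter with an unadjusted p under 0.05. It was at 3.17, 3.80 and 3.87 CPM in Smad7-/- and at 4.37, 5.12 and 5.11 CPM in wild type. The groups did not overlap, and library 1 was the lowest in each. Its log2 fold change was -0.43 ± 0.19 (SE; edgeR unadjusted p = 0.0446, adjusted p = 0.952), and the ratio was -0.29 in the first library set and -0.36 in the other. It did not pass in DESeq2 (-0.43 ± 0.20, adjusted p = 0.819).

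The zinc importers were the most precisely measured family, with a median standard error of 0.10, and 12 of 13 tested members lay below 0, with a family median of -0.05. Slc39a8, or ZIP8, which carries zinc and manganese, was at 515, 467 and 432 CPM in Smad7-/- and at 579.5, 457 and 430.1 CPM in wild type. The groups overlapped, with library 1 the highest in each, and the log2 fold change was -0.05 ± 0.13, with a 95% interval from -0.33 to 0.23. Slc39a13, or ZIP13, whose loss disturbs bone, teeth and skin through BMP and TGF-beta signalling in mice, was at 48.0, 45.4 and 39.8 CPM in Smad7-/- and at 39.1, 47.6 and 48.2 CPM in wild type. Its values crossed between the genotypes, at -0.02 ± 0.11. The remaining abundant importers Slc39a1, Slc39a3, Slc39a6, Slc39a7, Slc39a9, Slc39a10, Slc39a11 and Slc39a14 ranged from -0.17 to 0.12. At the lower end of that range Slc39a11 was at 85.2, 93.7 and 84.7 CPM in Smad7-/- and at 104.06, 94.8 and 98.4 CPM in wild type, chosen here after its values were seen because the groups did not overlap. Its fold change was -0.17 ± 0.09 (edgeR unadjusted p = 0.0733, adjusted p = 0.995). The scarce Slc39a2, Slc39a4 and Slc39a5 ranged from -0.41 to -0.19; Slc39a4 is the importer that takes up dietary zinc in the gut.

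Genes that work alongside these carriers were read in the same fit, from a list of 77 genes of acid, calcium, phosphate and metal handling of which 70 were tested. The edgeR test called 0 of 70 over all genes, and an unadjusted p under 0.05 was reached by 3 on the lower side, where 1.88% of all tested genes did so, and by 7 on the higher side, where 3.26% did. DESeq2 called 1, where it called 0.351% of all genes. The median log2 fold change of the list was -0.01. Atp6v0d2, a subunit of the proton pump that osteoclasts use to dissolve mineral, was at 14.6, 16.4 and 18.9 CPM in Smad7-/- and at 7.84, 10.7 and 11.3 CPM in wild type. The groups did not overlap, with a log2 fold change of 0.74 ± 0.17 (edgeR adjusted p = 0.571) and an adjusted p = 0.0158 in DESeq2. Tcirg1, the osteoclast form of another subunit of this pump, was at 0.64 ± 0.17 with groups that did not overlap, while the widely used subunit Atp6v1a was at 0.04 ± 0.08. Car6, a secreted carbonic anhydrase, was at 0.89 ± 0.31, and Clcn3, a chloride-proton exchanger of endosomes, at -0.24 ± 0.10.

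The calcium genes of the list included 2 abundant transcripts with estimates on the lower side. Itpr3, a calcium release channel, was at 475, 502 and 459 CPM in Smad7-/- and at 560.2, 653 and 582.5 CPM in wild type. These groups did not overlap, with a log2 fold change of -0.32 ± 0.10 (edgeR unadjusted p = 0.00734, adjusted p = 0.705). Calb1, the calcium buffer calbindin, was at 1448, 2079.5 and 1599 CPM in Smad7-/- and at 1814, 2418 and 2473 CPM in wild type. These values overlapped, with a log2 fold change of -0.39 ± 0.17 (edgeR adjusted p = 0.938). The log2 ratio of Calb1 was -0.04 in the first library set and -0.61 in the other. Slc8a1, a sodium-calcium exchanger of the plasma membrane, was at 0.41 ± 0.15. The sodium pump gene Atp1b3 stood at -0.01 ± 0.12, the phosphate genes Slc20a2 and Ank at -0.12 ± 0.10 and -0.03 ± 0.09, and the gap junction gene Gja1 at -0.18 ± 0.11. Among metal genes the metallothioneins Mt1 and Mt3, which bind zinc and copper, were at 0.35 ± 0.12 and 0.94 ± 0.34. Mt3 was scarce, at 2.26 CPM in Smad7-/- and 1.17 CPM in wild type on average. The metallothionein Mt2 did not share this direction, at -0.00471 ± 0.30. The iron exporter Slc40a1 was at 0.35 ± 0.13 (edgeR adjusted p = 0.827 for each of Mt1, Mt3 and Slc40a1). The copper importer Slc31a1 and the transferrin receptor Tfrc stood at 0.03 ± 0.09 and -0.14 ± 0.13.

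Markers of several cell types moved with genotype beside these differences. The summed level of 5 osteoclast markers was 1069 to 1224 CPM in Smad7-/- and 482 to 786 CPM in wild type, with 5 of 5 above 0. That of 7 dental mesenchyme markers was 1139.8 to 1237 CPM in Smad7-/- and 836 to 1080.2 CPM in wild type, with 7 of 7 above 0. Vim made up most of this sum, with means of 916 CPM in Smad7-/- and 767 CPM in wild type. The groups overlapped for Vim and not for the other mesenchyme markers. The 7 dental epithelium markers were all below 0, with a median log2 fold change of -0.13, and summed to 6914 to 8476 CPM in Smad7-/- and 8185 to 9094 CPM in wild type. The 7 enamel epithelium markers had a median of -0.41, with 5 of 7 below 0, and summed to 10249 to 14000.4 CPM in Smad7-/- and 10393 to 24489 CPM in wild type. None of these markers passed the edgeR test over all genes (adjusted p of at least 0.380), while DESeq2 called the osteoclast genes Ctsk and Acp5 and the mesenchymal Prrx1. Macrophage markers, 5 of 5 above 0 and of which DESeq2 called Csf1r and Cd68, summed to 125 to 137 CPM in Smad7-/- and 72.4 to 98.4 CPM in wild type. Atp6v0d2 and Tcirg1 moved with the osteoclast sum, whose part in their difference was not tested. Amelx and Enam did not keep their direction within the library sets: Amelx was at 0.23 in the first set and -0.98 in the other, and Enam at 0.08 and -1.05. The log2 ratio of Slc4a4 was below 0 in both sets, and the part of these cell types in it was not tested. Red blood cell markers summed to 16.8 to 28.7 CPM in Smad7-/- and 35.3 to 50.5 CPM in wild type. Of these, Hba-a1 and Hba-a2 had no count in any library, and Slc4a1 was at 2.82, 1.38 and 11.5 CPM in Smad7-/- and at 17.05, 16.3 and 14.7 CPM in wild type.

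**Figure D4:**
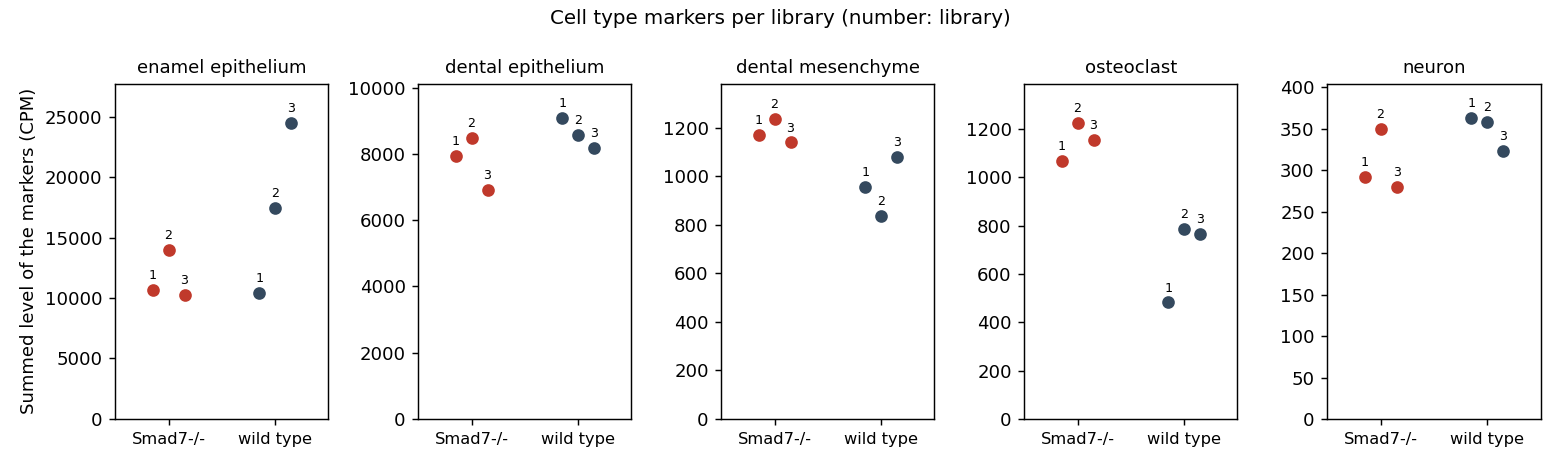
Summed level in CPM (y axis) of the markers of 5 cell types in each library, Smad7-/- left of wild type, with the library number above each point. Osteoclast and dental mesenchyme sums are higher in every Smad7-/- library (from 1069 and 1139.8 CPM) than in any wild-type library (up to 786 and 1080.2 CPM), and the other 3 types overlap between the genotypes. Vim makes up most of the dental mesenchyme sum.

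The estimates of Slc4a4 and Slc4a8 kept their sign under every processing setting tried. Both genes were singled out by their p-values and had groups that did not overlap. Their sign could therefore hardly change, and its constancy is no separate support. The log2 fold change ran from -0.49 to -0.41 for Slc4a4 over 15 alternatives and from -1.88 to -1.14 for Slc4a8 over 14. DESeq2 was the one alternative in which their adjusted p lay under 0.05.

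**Figure D5:**
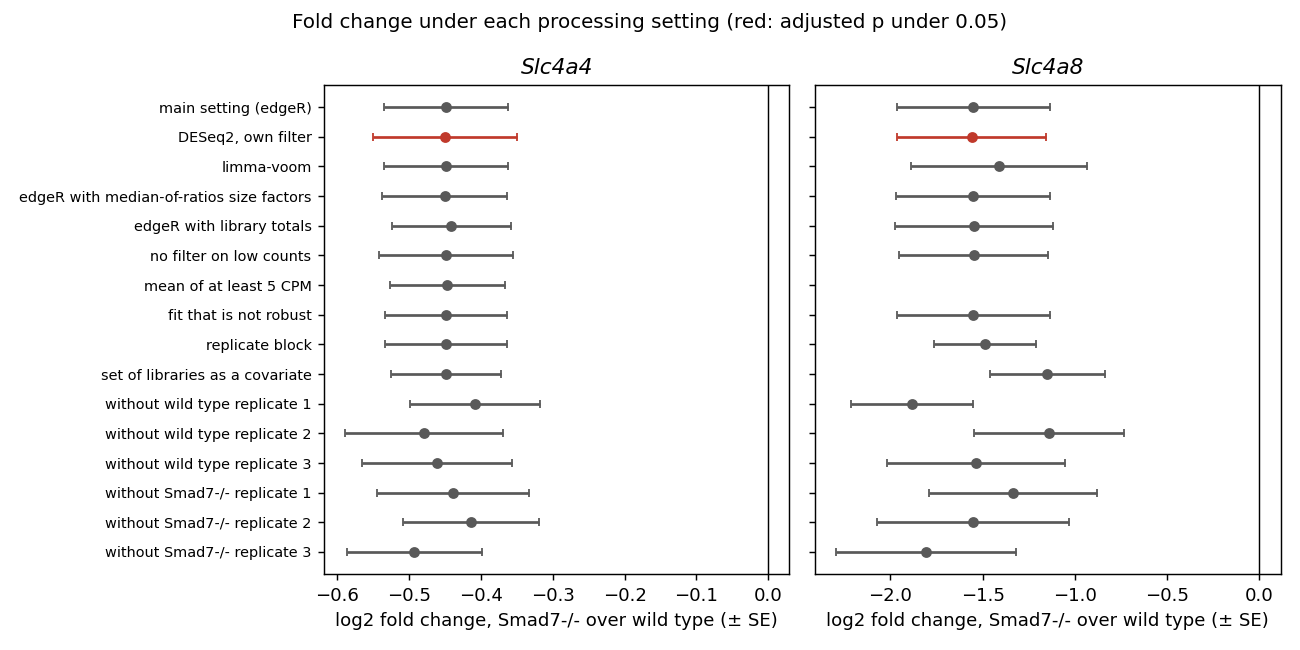
Log2 fold change (Smad7-/- over wild type, x axis, ± SE) of Slc4a4 and Slc4a8 under each processing setting (y axis), in red where the adjusted p was under 0.05. All points lie below 0, from -0.49 to -0.41 for Slc4a4 and from -1.88 to -1.14 for Slc4a8, and the red points are those of DESeq2; Slc4a8 was not tested at a mean of at least 5 CPM.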

How the data were processed

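Tooth germ RNA was extracted with an RNeasy kit and made into TruSeq RNA libraries, per the labels' protocols. Reads were aligned with HISAT2 to mm10 and counted with featureCounts, and DESeq2 is also named, per the submitters' processing notes, with versions not given in the sources used here. The authors deposited 1 table per library of raw counts per gene symbol, not normalized. Of 23420 symbols, 27 are spreadsheet dates, with at most 0.223% of a library's counts.

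All 6 libraries entered 1 fit without covariates. filterByExpr (minimum count 10, minimum total 15) left 15284 genes. TMM scaling and the robust quasi-likelihood F-test of edgeR 4.0.16 (R 4.3.3) followed, with Benjamini-Hochberg adjustment across the 15284 genes and a call at 0.05. The biological coefficient of variation was 15.9%. CPM uses TMM-scaled library sizes. Ratios within sets of libraries used CPM plus 0.5. Alternatives were DESeq2 1.42.0, limma-voom (limma 3.58.1), other scalings and filters, a fit that is not robust, a replicate block, a set covariate and leaving out each library. Exon lengths came from GENCODE M21 (GRCm38) and promoter windows from RefSeq (GRCm38.p6). All 58 members had a gene model. The reads carry no molecular identifiers. The standard errors and intervals of the edgeR fit include the spread between libraries as well as counting error.

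Members and lists were chosen with earlier results of these data known. Values per library are given for members past an adjusted p of 0.05 in edgeR or DESeq2 and for up to 6 per direction with an unadjusted p under 0.05. They are also given for the most abundant member of each family and for members with a role in tooth mineral, of which some items are not reported here. Companion genes named were the 2 most abundant of each group and up to 4 per direction with the smallest unadjusted p under 0.05. Slc8a1, Mt2, Mt3, Slc40a1, Slc9a8 and Slc39a11 fall outside these rules and were chosen after their values were seen.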

Additional observations from a re-analysis of the deposited data

How the results depend on the processing

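The count of genes called over the whole table was 4 and became 59 by DESeq2 and 2 when genes under a mean of 5 CPM were left out, where fewer genes were tested. Without 1 library it ran from 1 (without Smad7-/- library 2) to 7 (without Smad7-/- library 3), with 2 without Smad7-/- library 1. The members called were 0 except by DESeq2, with 2, and the companion genes called 0 except by DESeq2, with 1. The median log2 fold change of members ran from -0.14 (without wild-type library 1) to -0.0432 (without wild-type library 2). Among the alternative values of Smad7 and the named members, 236 kept their sign and their side of the threshold, 9 changed sign, 2 newly passed and 1 no longer passed. Smad7 was at -3.83 with an adjusted p of 0.0887 without Smad7-/- library 2. Values near 0 changed sign: without 1 library Slc39a8 ran from -0.14 to 0.0831, Slc30a4 from -0.0190 to 0.0979 and Slc39a13 from -0.11 to 0.0552, and Slc30a4 was at -0.0460 with the set of libraries as a covariate. The cause was not tested.

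The replicate numbers share no stated litter or day, and residuals of libraries with the same number correlated at 0.169, -0.0339 and 0.0927. With the replicate number as a block 4 genes and 0 members were called, with a member median of -0.10, Slc4a4 at -0.45 and Slc4a8 at -1.49. Depth limits members below 5 CPM, whose median standard error was 0.37.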

Other observations

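Metal-response element cores, the letters that the zinc-sensing factor MTF1 is known to bind, were searched in the same 250-base windows on both strands. TGCGCNC was found in 12.5% of all 32817 windows and in 9 of the 55 member windows, and TGCACNC in 10.4% of all windows and in 9 of 55. The member windows had a median of 56.0% G and C, against 52.4% over all windows. Slc30a1 held 1 TGCACNC match and Slc30a10 held 3 TGCGCNC matches. Slc30a1, whose zinc response through MTF1 is known, had a log2 fold change of 0.04 ± 0.10 (Smad7-/- over wild type, SE; 95% interval from -0.19 to 0.26).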
